A study of Sus scrofa with 2 samples.

Results

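Tenocyte-like cells that carried the transcript of TNMD (tenomodulin) were taken from 2 droplet single-cell libraries of pig back muscle. A barcode was counted as a TNMD cell when it had 500 or more detected genes, 3 or more TNMD molecules (UMIs, the unique tags that count each captured transcript once), and no UMI of PAX7, MYF5, PECAM1 or C1QB, genes that mark satellite cells, endothelial cells and macrophages. This rule found 640 cells among 26981 deposited barcodes. The GDSS library held 390 of them among 12286 barcodes, which is 3.17% (95% Clopper-Pearson interval 2.87 to 3.50). The Yorkshire library held 250 among 14695 barcodes, which is 1.70% (1.498 to 1.924). TNMD, PAX7, MYF5, PECAM1 and C1QB chose the cells, so their values are given only as a description.

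Both libraries came from longissimus dorsi muscle of piglets, the first from the Guangdong small-eared spotted pig (GDSS), a local Chinese breed, and the second from the Yorkshire pig, a fast-growing commercial breed. The labels call the cells of both intramuscular vascular stem cells (IVSC). Per the labels, 1 g of muscle came from each piglet. Lysis cleared the erythrocytes, magnetic beads took out dead cells, and what remained went into the 10x Genomics v2 chemistry. With 1 library per breed there is no replicate. Breed cannot be told apart from animal, preparation or library, and no test was made. The labels used here do not explain "P0", and they give neither the number of piglets behind a library nor their sex.

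Tenocytes are the fibroblasts of tendon. They lay down long parallel fibrils of type I collagen, trim the thickness of those fibrils with small leucine-rich proteoglycans such as fibromodulin, and link them with glycoproteins such as cartilage oligomeric matrix protein. Tenomodulin is a type II membrane glycoprotein of mature tenocytes, and in mice its gene lies downstream of the transcription factors Scleraxis and Mohawk. In muscle, such cells sit in the tendon and aponeurosis ends of the fibres and in the thicker connective tissue around bundles, beside the interstitial fibroblasts known as fibro-adipogenic progenitors (FAPs).

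The comparator in each library was the set of TNMD-free stromal barcodes, those with 50 or more UMIs of DCN, LUM and MFAP5 together per 10000 and no TNMD UMI. There were 8282 of these in GDSS and 2143 in Yorkshire. TNMD cells therefore made up 4.50% of TNMD cells and TNMD-free stroma together in GDSS (4.07 to 4.95) and 10.4% in Yorkshire (9.25 to 11.7), the opposite order from their shares of all barcodes. The libraries held 42093851 and 54300953 UMIs. Of these, 2539950 and 1678078 lay in TNMD cells, and 28171395 and 8852679 in TNMD-free stroma. The median TNMD cell had 6062 UMIs and 1621 genes in GDSS and 6578.5 UMIs and 1725 genes in Yorkshire, against 2947.5 and 3648 UMIs in TNMD-free stromal barcodes. A rule that asks for 3 UMIs of a gene favours deep barcodes. The share of mitochondrial UMIs was alike, at a median of 3.72% in GDSS and 3.76% in Yorkshire TNMD cells and 3.97% and 3.75% in stroma. A doublet score of 0.3 or more was given to 21 GDSS TNMD cells (5.38%) and 2 Yorkshire TNMD cells (0.8%), against 1.11% and 2.31% of all barcodes. The libraries shared 47 barcode sequences, none of them among TNMD cells of both.

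TNMD itself was concentrated in few barcodes. In GDSS 610 barcodes had any TNMD UMI and 419 had 3 or more. Of the 29 that the rest of the rule left out, 14 held PECAM1, 7 held C1QB, 6 held PAX7 or MYF5 and 2 had too few genes. In Yorkshire 431 barcodes had any TNMD UMI and 302 had 3 or more. There 52 were left out, and 34 of these held PAX7 or MYF5, 17 PECAM1 and 4 C1QB, some more than 1 of them. A TNMD cell had a median of 16 TNMD UMIs in GDSS (quartiles 7 and 27, highest 77) and of 9 in Yorkshire (quartiles 6 and 13, highest 27). TNMD cells held 90.2% of all TNMD UMIs of the GDSS library and 80.3% of those of the Yorkshire library. Just inside the threshold, 32 GDSS and 13 Yorkshire TNMD cells had exactly 3 TNMD UMIs. Just outside it, 34 GDSS and 25 Yorkshire barcodes that met the rest of the rule had 2, and 111 and 59 had 1.

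**Figure D1:**
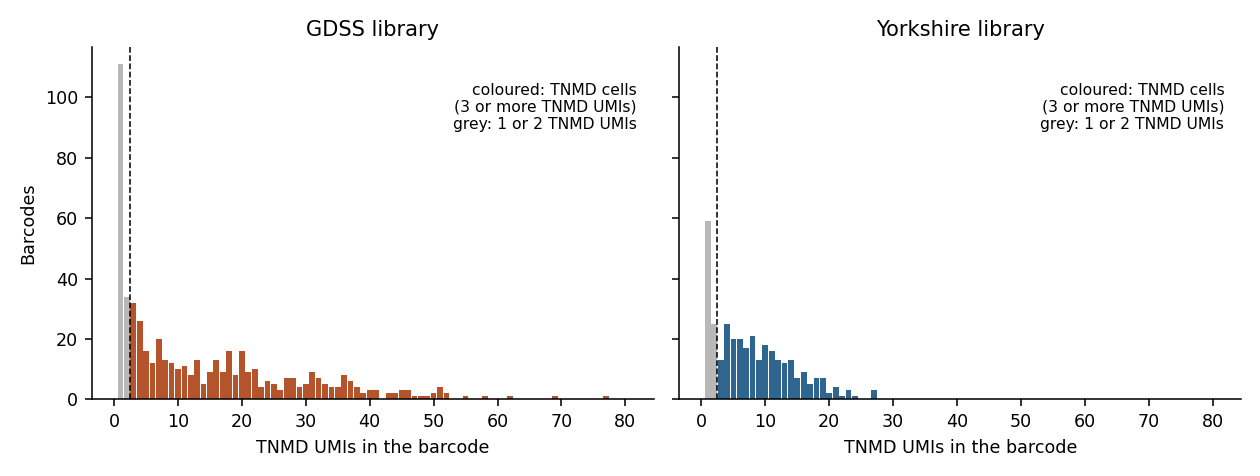
Number of barcodes (y axis) by TNMD UMIs in the barcode (x axis) in each library, for barcodes with at least 1 TNMD UMI that met the rest of the rule. Coloured bars are TNMD cells and grey bars are barcodes with 1 or 2 TNMD UMIs; the GDSS cells spread to 77 UMIs and the Yorkshire cells to 27.

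TNMD UMIs were also found in other cell kinds. In barcodes with 3 or more PECAM1 UMIs, which should lack the gene, 1.44% had a TNMD UMI in GDSS and 0.83% in Yorkshire, at median depths of 5833 and 4317 UMIs. The share was 2.40% and 0.766% in barcodes with 3 or more PAX7 and MYF5 UMIs, and 0.735% and 1.69% in those with 3 or more C1QB UMIs. Not all of these were single counts. The 8 GDSS barcodes with TNMD among those with PAX7 and MYF5 held 57 TNMD UMIs, and the 2 GDSS barcodes among those with C1QB held 21. The threshold of 3 TNMD UMIs therefore does not by itself separate TNMD cells from barcodes that carry markers of other cells, and the rule left these out by the markers.

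Levels are given as CPM, the UMIs of a gene summed over a group of barcodes and scaled to a total of 1000000 UMIs. A gene entered a comparison with at least 100 UMIs over both sums and a mean of at least 10 CPM, in each library. It was counted as higher or lower when its ratio was at least 2-fold in the same direction in both libraries. Of 6380 genes that entered, 186 (2.92%) were at least 2-fold higher in TNMD cells than in TNMD-free stroma and 816 (12.8%) at least 2-fold lower. The stromal sums were larger, so genes high only in stroma could reach 100 UMIs at lower CPM than genes high only in TNMD cells. The counts of higher and lower genes are therefore not on an equal footing. The shares of 2.92% and 12.8% are the ones to set beside the counts of each gene list below. The median log2 ratio over all of them was -0.29 in GDSS and -0.46 in Yorkshire. COL1A1 and COL1A2 alone took 10.6% of the UMIs of GDSS and 10.9% of those of Yorkshire TNMD cells, against 1.72% and 2.07% in TNMD-free stroma. With TMM scaling in place of totals, 333 genes were higher and 466 lower, and the medians were -0.04 and 0.03. Every interval below is a 95% interval that covers counting error only.

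The other 5 tenocyte markers were all at least 2-fold higher in TNMD cells. The rule had used none of these 5, but the list was chosen with earlier results of these data known. Their levels are therefore a description and no independent support. FMOD, the proteoglycan fibromodulin, had 2559 CPM in GDSS TNMD cells against 81.6 CPM in GDSS stroma, and 2510 CPM in Yorkshire TNMD cells against 83.6 CPM in Yorkshire stroma. The log2 ratio was 4.97 in GDSS (4.90 to 5.04) and 4.91 in Yorkshire (4.80 to 5.02). KERA, the proteoglycan keratocan, had 1427 CPM in GDSS TNMD cells against 62.2 CPM in stroma, and 759 CPM in Yorkshire TNMD cells against 74.4 CPM in stroma. THBS2, a matricellular thrombospondin that limits fibril thickness, had 706 CPM against 46.3 CPM in GDSS and 943 CPM against 92.5 CPM in Yorkshire. FNDC1, a fibronectin type III domain protein, had 198 CPM against 53.6 CPM in GDSS and 266 CPM against 98.4 CPM in Yorkshire, the smallest difference of the markers at 3.70-fold and 2.70-fold. COL11A1, a minor fibrillar collagen that starts fibrils, had 1131 CPM against 9.37 CPM in GDSS and 1499 CPM against 41.0 CPM in Yorkshire.

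Fibrillar and fibril-associated collagens, taken as 1 list, split into a group that was higher and a group that was lower. Of 13 listed, 11 entered, and 6 were higher and 3 lower, with list medians of 1.34 in GDSS and 1.01 in Yorkshire on the log2 scale. COL1A1, the main chain of tendon collagen, had 48274 CPM in GDSS TNMD cells against 7663 CPM in stroma, and 49905 CPM in Yorkshire TNMD cells against 9424 CPM in stroma. COL1A2, its partner chain, had 58213 CPM against 9579 CPM in GDSS and 59009 CPM against 11269 CPM in Yorkshire. These are differences of 6.30-fold and 5.30-fold for COL1A1 and of 6.08-fold and 5.24-fold for COL1A2.

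COL3A1, the type III chain of loose connective tissue, went the other way. It had 1432 CPM in GDSS TNMD cells against 9673 CPM in stroma, and 798 CPM in Yorkshire TNMD cells against 9051 CPM in stroma, which is 6.76-fold and 11.3-fold lower. The type V chains COL5A1 and COL5A3, which join fibrils in many tissues, were also lower, COL5A3 with 21.3 CPM in GDSS and 22.1 CPM in Yorkshire TNMD cells against 162 CPM and 187 CPM in stroma. COL5A2 did not pass 2-fold in either library.

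The type XI chains, which belong to the same fibril-starting family, were among the most different genes of all. COL11A2 had 809 CPM in GDSS TNMD cells against 4.65 CPM in stroma, and 762 CPM in Yorkshire TNMD cells against 5.87 CPM in stroma, or 174-fold and 130-fold (129.8). Type XII collagen, a fibril-surface molecule of dense tissue, was 4.69-fold and 5.10-fold higher, with COL12A1 at 961 CPM in GDSS and 1294 CPM among Yorkshire TNMD cells. COL14A1, a relative of it, lay at the edge of the call, at 2.01-fold in both libraries.

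Collagens that build networks rather than fibrils were not higher in any case. Of 12 listed, 9 entered, 5 were lower and none was higher. COL4A1, the basement membrane chain, had 189.8 CPM in GDSS TNMD cells against 1811 CPM in stroma, and 91.8 CPM in Yorkshire TNMD cells against 1745 CPM in stroma. COL6A6, a chain of beaded filaments, had 5.12 CPM in GDSS TNMD cells against 41.0 CPM in stroma and only 2 UMIs in Yorkshire TNMD cells, 1.19 CPM against 33.9 CPM in stroma (log2 -4.83, -7.88 to -2.96). COL6A1, with 2156 CPM in GDSS and 1686 CPM in Yorkshire TNMD cells, was within 2-fold of stroma.

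Small leucine-rich proteoglycans, which bind fibril surfaces, had 9 of 13 members in the comparison, and 3 of these were higher and 1 lower. The share that was lower was near the 12.8% of all genes. Beside FMOD and KERA, the third was CHAD (chondroadherin, a cell-binding matrix protein), with 119.7 CPM in GDSS TNMD cells against 4.26 CPM in stroma and 101.3 CPM in Yorkshire TNMD cells against 3.28 CPM in stroma. PRELP, a heparin-binding member, was lower, with 26.0 CPM in GDSS and 13.1 CPM in Yorkshire TNMD cells against 94.6 CPM and 97.3 CPM in stroma. BGN, ASPN and OGN were higher by less than 2-fold in both libraries, between 1.57-fold and 1.99-fold. The pair DCN and LUM helped to define the stroma, so they are described only. DCN had 9899 CPM in GDSS and 8637 CPM in Yorkshire TNMD cells against 7281 CPM and 6153 CPM in stroma. LUM had 370 CPM (370.1) in GDSS and 67.9 CPM in Yorkshire TNMD cells against 4170 CPM (4169.6) and 2005 CPM in stroma.

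Among tendon matrix glycoproteins 18 of 21 entered, and 8 were higher and 4 lower. COMP, the pentameric protein that bridges collagen fibrils, had 2098 CPM in GDSS TNMD cells against 2.31 CPM in stroma, and 3549 CPM in Yorkshire TNMD cells against 4.74 CPM in stroma. Its log2 ratio was 9.83 in GDSS (9.48 to 10.20) and 9.55 in Yorkshire (9.11 to 10.02). CILP2, a cartilage intermediate layer protein, had 592 CPM against 2.59 CPM in GDSS and 487 CPM against 1.36 CPM in Yorkshire. Its relative CILP went the other way, with 24.4 CPM in GDSS and 16.7 CPM in Yorkshire TNMD cells against 96.0 CPM and 134 CPM in stroma.

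Thrombospondin 4, a tendon and muscle-junction thrombospondin, was higher by less than its relatives. THBS4 had 835 CPM in GDSS TNMD cells against 162 CPM in stroma, and 987 CPM in Yorkshire TNMD cells against 374 CPM in stroma. SPARC, a collagen-binding calcium protein, was 2.43-fold and 2.23-fold higher. TNC, a glycoprotein of loaded tissue, and CLEC11A, a lectin-like growth factor, passed 2-fold as well. TNXB, the tenascin of loose connective tissue, was 10.6-fold and 28.3-fold lower, with 67.7 CPM in GDSS and 26.2 CPM in Yorkshire TNMD cells against 721 CPM and 742 CPM in stroma. VCAN, a large hydrating proteoglycan, was lower as well. The list's median of 0.72 in GDSS and 0.91 in Yorkshire depended on the comparator and is taken up again below.

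Genes better known from cartilage and the enthesis were present in part. Of 15 listed only COL2A1 entered. COL2A1, the fibrillar collagen of cartilage, had 1437 UMIs in GDSS TNMD cells and 742 in Yorkshire TNMD cells, that is 566 CPM and 442 CPM, against 0.319 CPM and 6.10 CPM in stroma. At least 1 COL2A1 UMI was found in 77.9% of GDSS TNMD cells (73.5 to 82.0) and 77.6% of Yorkshire TNMD cells (71.9 to 82.6), against 1.40% or less of stromal barcodes. With every barcode thinned to 1500 UMIs the shares were 45.9% and 42.7%, and 2 cells of each library were too shallow to enter. ACAN (aggrecan, the large cartilage proteoglycan) stayed under the entry minimum, with 61.4 CPM in GDSS TNMD cells against 0.213 CPM in stroma. In Yorkshire it had 36.9 CPM in TNMD cells and no UMI in stroma, which makes it at least 109-fold higher there, against a floor of 3 UMIs over the sum. SOX9, the transcription factor of chondrocytes, had 2 UMIs in GDSS and 1 UMI in Yorkshire TNMD cells, against 176 and 140 UMIs in the larger stromal sums.

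Transcription factors of tendon were led by MKX (Mohawk). It had 123 CPM in GDSS TNMD cells against 1.38 CPM in stroma and 213 CPM in Yorkshire TNMD cells against 9.60 CPM in stroma, 89.0-fold and 22.2-fold. Of 16 listed factors 8 entered, and MKX was the only one higher and RUNX1 the only one lower. As counts these cannot be set apart from the 2.92% and 12.8% of all genes. SCX (Scleraxis) was barely captured, with 4 UMIs in GDSS and 7 in Yorkshire TNMD cells, against 2 UMIs and none in stroma. EGR1, a load-responsive factor, had 2932 CPM in GDSS and 1676 CPM in Yorkshire TNMD cells against 4657 CPM and 2308 CPM in stroma, within 2-fold in both.

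Of 28 listed signalling genes of the TGF-beta, BMP and FGF families, 21 entered, 2 were higher and 4 lower. Such counts are too small to set apart from the 2.92% higher and 12.8% lower of all genes. CCN2, a matricellular growth factor downstream of TGF-beta and stretch, had 2085 CPM in GDSS TNMD cells against 259.9 CPM in stroma, and 1962 CPM in Yorkshire TNMD cells against 79.5 CPM in stroma. INHBA, which encodes activin A, was 4.59-fold and 2.06-fold higher. Its antagonist FST was 7.25-fold and 7.74-fold lower, and TGFB1 and its latency partner LTBP1 were lower too. The list median was -0.40 in GDSS and -0.24 in Yorkshire, close to that of all genes, and their mean became 0.04 under TMM scaling. Among 20 hedgehog and Wnt genes 11 entered, with 2 higher and 4 lower. DKK3, a secreted Dickkopf relative, was 14.4-fold and 5.23-fold higher and SFRP2, a Wnt-binding protein, 2.68-fold and 2.17-fold higher, while WNT5A, a Wnt ligand, was 6.25-fold and 23.4-fold lower.

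Genes that fold, modify and crosslink collagen had 21 of 24 members in the comparison, of which 5 were higher and 2 lower. LOX (lysyl oxidase, the crosslinking enzyme) had 809.9 CPM in GDSS TNMD cells against 205 CPM in stroma and 1293 CPM in Yorkshire TNMD cells against 385 CPM in stroma. The others were the collagen hydroxylase components P4HA1 and P3H3, the folding factor FKBP10 and the collagen chaperone SERPINH1, at 2.01-fold to 3.06-fold. P4HA2, the sister of P4HA1, was 5.66-fold and 10.2-fold lower. Matrix proteases and inhibitors had none higher and 6 of 8 lower, among them MMP2, a gelatinase, at 2.80-fold and 2.76-fold lower. Of 20 adhesion and force-sensing genes 17 entered, with 2 higher and 3 lower, too few to set apart from the 2.92% and 12.8% of all genes. The collagen receptor subunits ITGA1 and ITGA10 were higher, and ITGA5, a fibronectin receptor subunit, ITGB5 and TAGLN were lower.

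Among FAP markers, DCN was higher in TNMD cells, though within 2-fold, and LUM and MFAP5 were lower. These had defined the stroma, a choice that by itself favours high FAP markers there. All 7 that the rule had not used were at least 2-fold lower in both libraries, against 12.8% of all genes. The list medians were -2.76 in GDSS and -3.50 in Yorkshire. PDGFRA, the receptor by which FAPs are sorted, had 12.6 CPM in GDSS TNMD cells against 189 CPM in stroma, and 4.17 CPM in Yorkshire TNMD cells against 193 CPM in stroma. A PDGFRA UMI was found in 5.90% of GDSS and 2.40% of Yorkshire TNMD cells, against 10.5% and 3.07% of PECAM1 barcodes, which should lack it. The median depth of PECAM1 barcodes was lower, at 5833 and 4317 UMIs, but in GDSS their mean depth was not. The share in TNMD cells was no higher than in PECAM1 barcodes, and the part of stray RNA was not tested. GDSS cells with 3 to 4 TNMD UMIs had 62.8 CPM (35.2 to 103.6), above the 24.3 CPM of GDSS PECAM1 barcodes. APOD, a lipid-binding lipocalin, was 10.7-fold and 33.0-fold lower and CFD (complement factor D, or adipsin) 15.5-fold and 36.7-fold lower. Summed, these 7 markers had 2716 CPM in GDSS and 1369 CPM in Yorkshire TNMD cells against 18748 CPM and 17456 CPM in stroma, and 4404 CPM and 4454 CPM in PECAM1 barcodes.

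Among other programs of muscle fibroblasts the share of lower genes varied. Of 6 entered genes of the PI16+ universal fibroblast state, 4 were lower, and PI16, a peptidase inhibitor, had 18 UMIs in GDSS and 8 in Yorkshire TNMD cells, at 18.0-fold (17.95) and 35.9-fold lower. Elastic fibre genes had 4 of 11 lower and none higher, and their median, as the mean of both libraries, was -0.61, or -0.25 under TMM scaling. Among them EFEMP1 (fibulin-3) had 12.2 CPM in GDSS TNMD cells against 242 CPM in stroma and 3 UMIs in Yorkshire TNMD cells, 1.79 CPM against 223 CPM in stroma (log2 -6.96, -9.24 to -5.41). Adipogenic genes had 7 of 11 lower, among them LPL (lipoprotein lipase), with 54.7 CPM in GDSS and 44.7 CPM in Yorkshire TNMD cells against 459.5 CPM and 693 CPM in stroma. Cytokines and chemokines had 5 of 6 lower, among them CXCL14, at 13.5-fold and 25.1-fold lower.

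The remaining gene groups were lower or within 2-fold. All 3 entered interferon response genes and both entered complement genes were lower, against 12.8% of all genes. Only 3 of 10 and 2 of 9 listed genes entered, and a gene could enter by its level in stroma alone. These counts are therefore in part set by the entry minimum. In the insulin-like growth factor axis 5 of 8 were lower, IGFBP5 and IGFBP7 among them. Of 12 genes linked to dissociation stress, 2 were lower, a share near the 12.8% of all genes, and none was higher. The medians were -0.82 in GDSS and -0.28 in Yorkshire. Tendon sheath genes had 4 of 10 in the comparison, 2 of them lower, and TPPP3, which marks sheath cells in mice, had 14.6 CPM in GDSS and 4.77 CPM in Yorkshire TNMD cells against 102 CPM and 94.8 CPM in stroma.

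**Figure D2:**
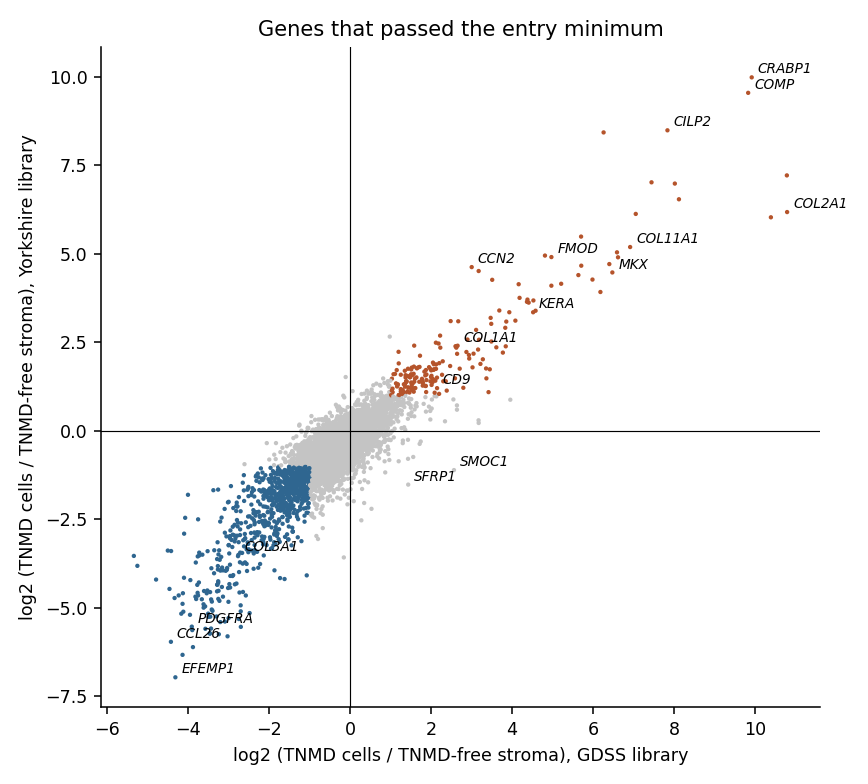
Log2 ratio of TNMD cells over TNMD-free stroma in the GDSS library (x axis) and in the Yorkshire library (y axis), 1 point per gene of the 6380 that entered. The 186 genes at least 2-fold higher in both libraries are brown, the 816 at least 2-fold lower in both are blue and the rest grey; CRABP1, COMP and CILP2, whose smaller ratio ranks highest, lie to the upper right, and SFRP1 and SMOC1 are the only genes past 2-fold in opposite directions.

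Ranked by the smaller of the 2 ratios, the 12 highest genes were CRABP1, COMP, CILP2, ANGPTL5, COL11A2, CPXM2, OTOR, PSTPIP1, COL2A1, PRSS35, RFLNA and COL11A1. CRABP1, a carrier of retinoic acid inside cells, had 240.2 CPM in GDSS TNMD cells against 0.248 CPM in stroma, and 114 CPM in Yorkshire TNMD cells against 0.113 CPM in stroma, where it had 1 UMI (log2 9.98, 7.49 to 15.30). ANGPTL5, a secreted angiopoietin-like protein, had 125 CPM in GDSS TNMD cells against 2 UMIs in stroma (log2 10.78, 8.92 to 13.84), and 201 CPM in Yorkshire TNMD cells against 1.36 CPM in stroma. OTOR (otoraplin), a small secreted protein known from the cochlea, had 119 CPM in GDSS TNMD cells against 0.426 CPM in stroma and 568 CPM in Yorkshire TNMD cells against 6.10 CPM in stroma. CPXM2, a carboxypeptidase-like secreted protein, was 259-fold and 127-fold higher. RFLNA, a filamin-binding protein, was 52.1-fold and 44.8-fold higher.

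At the other end stood CCL26, OSR2, EFEMP1, ALDH1A3, RNF180, PI16, SULT1A3, PLAU, PROCR, F2RL2, CFD and CHL1. CCL26, a chemokine, had 46.9 CPM in GDSS TNMD cells against 1004 CPM in stroma and 11.9 CPM in Yorkshire TNMD cells against 741 CPM in stroma. PLAU (urokinase, the plasminogen activator) had 29.1 CPM in GDSS and 8.34 CPM in Yorkshire TNMD cells against 509 CPM and 200.5 CPM in stroma. ALDH1A3, which makes retinoic acid, had 6 UMIs in GDSS TNMD cells, 18.8-fold lower than stroma. It had none in Yorkshire TNMD cells, which is at least 25.1-fold lower than the 44.8 CPM of stroma, against a floor of 3 UMIs.

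The label names vascular cells, and endothelial markers were near 0 in TNMD cells. The rule had left out every barcode with a UMI of PAX7, MYF5, PECAM1 or C1QB. That choice by itself favours low satellite cell, endothelial and macrophage markers, and PECAM1 and C1QB also chose the barcodes set beside them. The sums are therefore a description. The 7 endothelial markers other than PECAM1 summed to 9.45 CPM in GDSS and 14.3 CPM in Yorkshire TNMD cells, against 1738 CPM and 2963 CPM in PECAM1 barcodes, and 3 of them were at 0 in GDSS. The 8 mural cell markers summed to 91.7 CPM in GDSS and 119 CPM in Yorkshire TNMD cells, within 2-fold of the 165 CPM and 228 CPM of stroma. The 7 macrophage markers other than C1QB summed to 7.87 CPM and 3.58 CPM, against 5685 CPM and 6897 CPM in C1QB barcodes. Perineurial markers summed to 13.8 CPM in GDSS and 14.3 CPM in Yorkshire TNMD cells, against 71.2 CPM and 348 CPM in stroma.

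2 genes of the satellite cell and glia lists were exceptions. CHODL, a membrane lectin of satellite cells, had 158 CPM in GDSS TNMD cells against 26.3 CPM in stroma and 110.2 CPM in Yorkshire TNMD cells against 39.4 CPM in stroma, while MYOD1 had 3 and 10 UMIs. CRYAB, a small heat shock protein shared by muscle and glia, had 1100.4 CPM against 478 CPM in GDSS and 475 CPM against 127 CPM in Yorkshire. SOX10, a defining transcription factor of glia, had no UMI in TNMD cells of either library.

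CD9, a tetraspanin of the cell surface, was higher in TNMD cells than in stroma as a whole but not than in every kind of barcode. It had 612 CPM in GDSS TNMD cells against 138 CPM in stroma, and 489.8 CPM in Yorkshire TNMD cells against 212 CPM in stroma. At 1500 UMIs per barcode 48.2% of GDSS and 51.6% of Yorkshire TNMD cells had a CD9 UMI, against 9.97% and 16.2% of stromal barcodes. PECAM1 barcodes had 548 CPM and 382 CPM of CD9, and barcodes with PAX7 or MYF5 had 641 CPM and 603 CPM. CD82, another tetraspanin, was 10.3-fold and 2.79-fold higher than in stroma, and the other 6 tetraspanins were not called. Under TMM scaling the list's median changed sign, to a mean of 0.07 over both libraries.

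**Figure D3:**
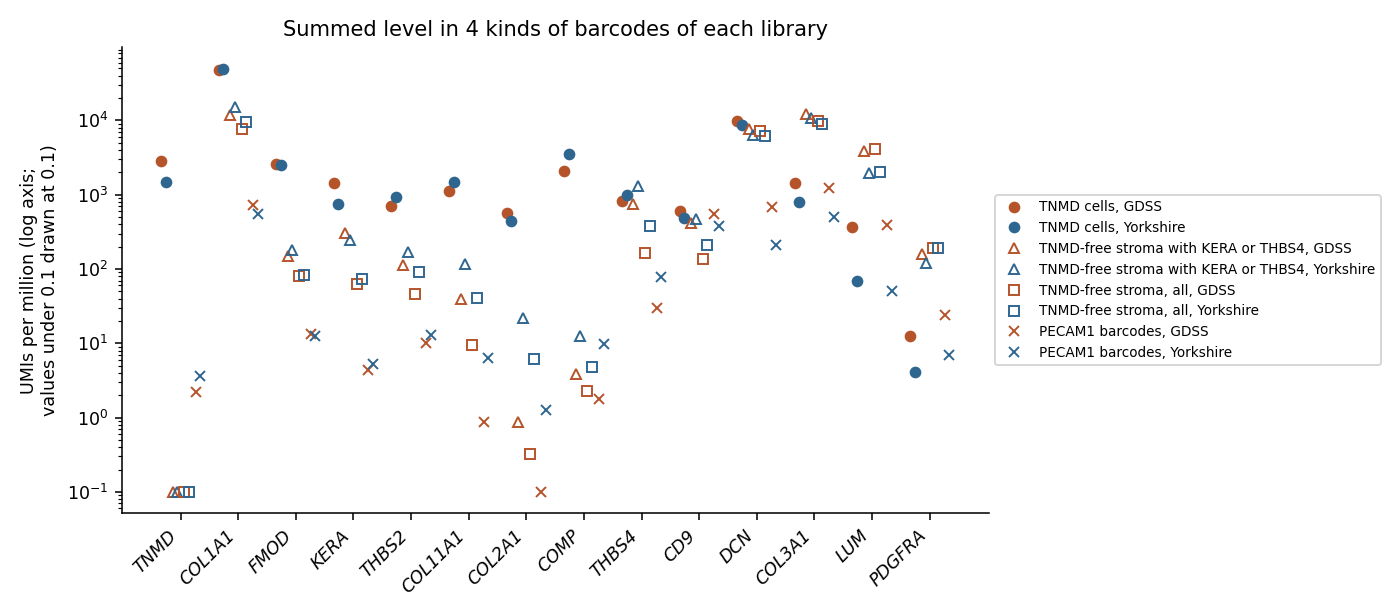
Summed level in CPM (y axis, log scale, values under 0.1 drawn at 0.1) of 14 genes in TNMD cells (filled circles), TNMD-free stroma with KERA or THBS4 (triangles), all TNMD-free stroma (squares) and PECAM1 barcodes (crosses), GDSS in brown and Yorkshire in blue. COMP and COL2A1 lie far above all other kinds in TNMD cells, THBS4 and CD9 lie close to stroma with KERA or THBS4, and COL3A1, LUM and PDGFRA lie below both stromal sets.

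A nearer comparator was added after the data were seen, the TNMD-free stromal barcodes with 3 or more UMIs of KERA and THBS4 together. There were 673 of them in GDSS and 373 in Yorkshire, with median depths of 4232 and 4882 UMIs. Against these barcodes 104 of 4000 entered genes were higher in TNMD cells and 502 lower. COMP stayed far apart, at 2098 CPM in GDSS TNMD cells against 3.81 CPM and 3549 CPM in Yorkshire TNMD cells against 12.4 CPM. COL2A1 had 0.879 CPM and 22.0 CPM in these barcodes, COL11A2 12.6 CPM and 12.9 CPM, and MKX 7.33 CPM and 31.5 CPM.

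Other genes lay closer. THBS4 helped to choose these barcodes, so its level is a description, and it had 757 CPM and 1324 CPM there, against 835 CPM in GDSS and 987 CPM in Yorkshire TNMD cells. CD9 had 419 CPM and 464 CPM, so that its mean log2 ratio over both libraries was 0.31. The tenocyte marker FNDC1 had 106 CPM and 143 CPM, with a mean log2 ratio of 0.90, under 2-fold. POSTN (periostin, a matricellular protein) had 1004 CPM in GDSS and 436 CPM in Yorkshire TNMD cells against 1212 CPM and 1278 CPM in these barcodes. The median of the tendon glycoprotein list, as the mean of both libraries, was -0.47 here and 0.82 over all stroma, so its sign changed. COL3A1 had 12070 CPM (12069.7) and 10614 CPM in these barcodes and PDGFRA 158 CPM and 122 CPM, both above TNMD cells by a wide margin.

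Set against all other barcodes of the library, 253 of 6451 genes (3.92%) were higher in TNMD cells and 929 (14.4%) lower. All 5 tenocyte markers other than TNMD were again higher, FMOD with 80.2 CPM in the other GDSS and 41.0 CPM in the other Yorkshire barcodes. COL1A1 had 6217 CPM there in GDSS and 2408 CPM in Yorkshire, so the ratio was 7.76-fold in GDSS and 20.7-fold in Yorkshire, where fewer of the other barcodes were stromal (15.5%, against 70.9% in GDSS). CD9 was 1.99-fold higher in GDSS and 0.969 times the level of other barcodes in Yorkshire.

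TNMD cells were not uniform. They were grouped by their TNMD UMIs, with 58 GDSS and 38 Yorkshire cells at 3 to 4, 73 and 91 at 5 to 9, and 259 and 121 at 10 or more. TNMD helped to form these groups, and they also differ in depth, with median UMIs of 3541, 3783 and 7260 in GDSS and 4567, 5502 and 7670 in Yorkshire. COL1A1 had 22820 CPM (22820.1), 30689 CPM and 54093 CPM from the lowest to the highest group in GDSS, and 41129 CPM, 47315 CPM and 53059 CPM in Yorkshire. COL2A1 had 138 CPM, 285 CPM and 661 CPM in GDSS and 270 CPM (270.4), 350.5 CPM and 526 CPM in Yorkshire. Both were higher in the group of 10 or more TNMD UMIs than in that of 3 to 4 by more than the counting intervals.

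COL3A1 had the opposite order, with 5608 CPM, 2272 CPM and 798 CPM in GDSS and 1534 CPM, 1080 CPM (1080.2) and 498 CPM in Yorkshire. THBS4 did not follow TNMD. Its highest level among TNMD cells was 1607 CPM at 5 to 9 UMIs in GDSS and 1529 CPM at 3 to 4 UMIs in Yorkshire, and the group of 10 or more had 661 CPM and 855 CPM. CD9 stayed between 452 CPM and 641 CPM in all 6 groups. The barcodes just outside the rule lay between stroma and TNMD cells for COL1A1, those with 2 TNMD UMIs having 22052 CPM of COL1A1 in GDSS and 31988 CPM in Yorkshire. For THBS4 they did not, with 1213 CPM and 1887 CPM, above both.

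**Figure D4:**
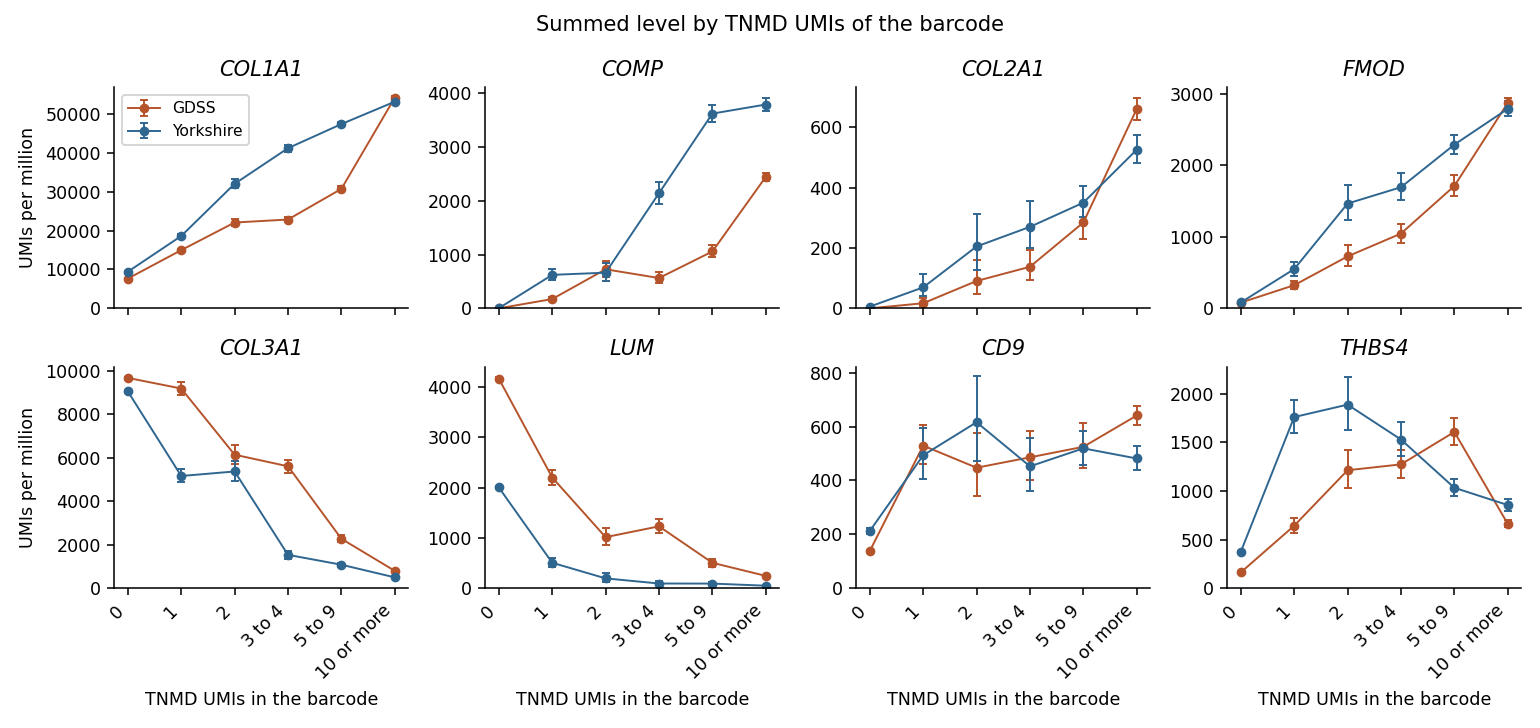
Summed level in CPM (y axes) of 8 genes by TNMD UMIs in the barcode (x axes), GDSS in brown and Yorkshire in blue, with exact Poisson 95% intervals of the count. The point at 0 is TNMD-free stroma, the points at 1 and 2 are barcodes that met the rest of the rule, and the last 3 are TNMD cells; COL1A1, COL2A1 and FMOD are highest in the last group of both libraries, COL3A1 and LUM lowest, and THBS4 peaks earlier.

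Several matrix genes went together between single TNMD cells, as a description over cells that share a library, each scaled to its own depth. Across 390 GDSS and 250 Yorkshire cells, Spearman's rho between COL1A1 and FMOD was 0.69 and 0.57, and between COL1A1 and COL2A1 0.57 and 0.56. COL3A1 went the opposite way from COL1A1, at -0.32 and -0.13. COL1A1 also went with the UMIs of the cell, at 0.49 and 0.38. TNMD went with COL1A1 at 0.44 in GDSS and 0.12 in Yorkshire. COMP was found in 77.4% of GDSS and 91.6% of Yorkshire TNMD cells, and in 66.0% and 85.1% after thinning to 1500 UMIs, so a part of the cells had little or none of it at this depth. MKX was found in 46.9% and 66.4%, or 14.7% and 26.6% after thinning.

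The breeds were compared within TNMD cells, which the GDSS and Yorkshire labels make possible although each is 1 library. The 100 UMI minimum, here over the TNMD cells of both libraries, left 3675 genes. GDSS was at least 2-fold above Yorkshire for 134 of them (3.65%) and at least 2-fold below it for 68 (1.85%). The median log2 ratio was 0.06. None of 10 fibrillar and fibril-associated collagens and none of 8 small leucine-rich proteoglycans passed 2-fold. These counts are too small to set apart from those shares of all genes. FMOD was 1.02 times as high in GDSS (0.98 to 1.06), COL1A1 0.97 times and COL1A2 0.99 times. COMP was 1.69-fold (1.63 to 1.76) and MKX 1.73-fold higher in Yorkshire, and KERA 1.88-fold higher in GDSS. Among cells with 10 or more TNMD UMIs the log2 ratio of KERA was 1.05, just past 2-fold.

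Among the 134 genes higher in GDSS, 32 (23.9%) passed the same fold in the same direction in TNMD-free stroma. Of all 3675 genes, 58 (1.58%) did so. Among the 68 genes higher in Yorkshire, 26 (38.2%) were also at least 2-fold higher in Yorkshire stroma, against 107 (2.91%) of all 3675 genes. HMGA1, a chromatin protein of growing cells, had 130.3 CPM in GDSS TNMD cells and 11.9 CPM in Yorkshire TNMD cells, 10.9-fold (6.97 to 18.1), and was found in 49.0% and 6.8% of them, against 28.5% of GDSS and 13.7% of Yorkshire PECAM1 barcodes. PECAM1 barcodes had 81.9 CPM in GDSS and 33.6 CPM in Yorkshire, and C1QB barcodes 179.7 CPM and 81.2 CPM, both higher in GDSS as well. In stroma it was 2.22-fold higher in GDSS. CALR (calreticulin, a chaperone of the endoplasmic reticulum) had 439 CPM in GDSS and 116 CPM in Yorkshire TNMD cells, 3.78-fold (3.24 to 4.42), and was 2.50-fold higher in GDSS stroma.

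FABP5, a fatty acid carrier, differed in opposite directions in the 2 cell kinds. It had 606 CPM in GDSS and 169.8 CPM in Yorkshire TNMD cells, 3.57-fold (3.14 to 4.07), but 67.1 CPM in GDSS and 146 CPM in Yorkshire stroma. PECAM1 barcodes held 5624 CPM and 8002 CPM of it, and whether stray RNA from them took part was not tested. SERPINH1 had 1698 CPM in GDSS and 776 CPM in Yorkshire TNMD cells, and POSTN 1004 CPM and 436 CPM, which is 2.19-fold and 2.30-fold. IGFBP6, an insulin-like growth factor binding protein, had 1113 CPM and 375 CPM. Among stress genes HSPH1 and DNAJB1, both heat shock proteins, were 2.57-fold and 2.17-fold higher in GDSS TNMD cells and 2.49-fold and 3.30-fold higher in GDSS stroma. With at least 10 TNMD UMIs, a minimum chosen after the data were seen, DNAJB1 had a log2 ratio of 0.93, just under 2-fold.

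Among the genes ranked, which left out sex-linked ones, MYOC (myocilin) had the largest difference, and few cells carried it. MYOC had 168 CPM in GDSS and 7.75 CPM in Yorkshire TNMD cells, 21.7-fold (12.6 to 41.1), but 10 GDSS cells held 56.9% of its GDSS UMIs. GDSS cells with 3 to 4 and 5 to 9 TNMD UMIs had 540.2 CPM and 589 CPM, and those with 10 or more had 57.3 CPM, close to the 50.5 CPM of GDSS PECAM1 barcodes. Yorkshire PECAM1 barcodes had 4.82 CPM. RARRES2 (chemerin) had 60.6 CPM in GDSS and 10.7 CPM in Yorkshire TNMD cells, below the 558 CPM and 454 CPM of stroma. NDUFA4L2, a relative of a respiratory chain subunit, and CKS2, a cell cycle protein, were 4.86-fold and 4.15-fold higher in GDSS. DKK2, a Wnt antagonist, and PTGS2, the inducible cyclooxygenase, were 3.63-fold and 3.39-fold higher. Among cells with 10 or more TNMD UMIs, the log2 ratio of PTGS2 was 0.29 and no longer past 2-fold, and that of DKK2 was 1.70.

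Of 6 entered FAP markers that the rule had not used, 5 were at least 2-fold higher in GDSS TNMD cells, against 3.65% of all genes. The median log2 ratio of the 6 was 1.15, against 0.30 for the same genes in stroma. CFD had 138 CPM in GDSS and 38.7 CPM in Yorkshire TNMD cells, and APOD 238 CPM and 116 CPM. CCL26, a gene of the universal fibroblast list, had 46.9 CPM and 11.9 CPM. LUM and MFAP5, which were part of the stromal rule, had 370.1 CPM and 304 CPM in GDSS TNMD cells and 67.9 CPM and 49.5 CPM in Yorkshire TNMD cells. PECAM1 barcodes, which should lack them, moved the same way, with 386 CPM and 315 CPM in GDSS and 50.5 CPM and 92.0 CPM in Yorkshire. They also had more APOD in GDSS than in Yorkshire, at 344 CPM and 143 CPM, and more CCL26, at 128 CPM and 74.1 CPM. CFD ran the other way there, with 687 CPM in GDSS and 897 CPM in Yorkshire PECAM1 barcodes. In GDSS 33.6% of TNMD cells had a LUM UMI and 31.4% of PECAM1 barcodes did, at medians of 6062 and 5833 UMIs. Among TNMD cells with 10 or more TNMD UMIs the log2 ratio of CFD was 1.44, and those of the FAP markers DPT and CLEC3B were 1.21 and 1.09. GSN, another FAP marker, had 0.77 and CCL26 0.91, both no longer past 2-fold. The median of the FAP list was 1.09 there, over 5 genes that entered. The part of stray stromal RNA, or of FAPs caught in the same droplet, was not tested.

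Genes higher in Yorkshire TNMD cells were fewer. OTOR had 119 CPM in GDSS and 568 CPM in Yorkshire TNMD cells, 4.79-fold higher in Yorkshire (4.21 to 5.47), and was found in 45.4% and 91.6% of cells. HES1, a target of Notch signalling, had 219.7 CPM in GDSS and 701 CPM in Yorkshire TNMD cells, 3.19-fold, while stroma had 266 CPM in GDSS and 435 CPM in Yorkshire. FBN2 (fibrillin-2, of developing elastic fibres) had 28.3 CPM in GDSS and 87.6 CPM in Yorkshire TNMD cells, and LOXL3, a lysyl oxidase relative, 23.6 CPM and 65.0 CPM. SLC1A2, a glutamate transporter, was 5.24-fold higher in Yorkshire (3.35 to 8.45). CD79A, a B cell gene, was 3.34-fold higher in Yorkshire TNMD cells, but PECAM1 barcodes had 68.2 CPM in GDSS and 168 CPM in Yorkshire, and stroma 72.2 CPM and 183 CPM.

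**Figure D5:**
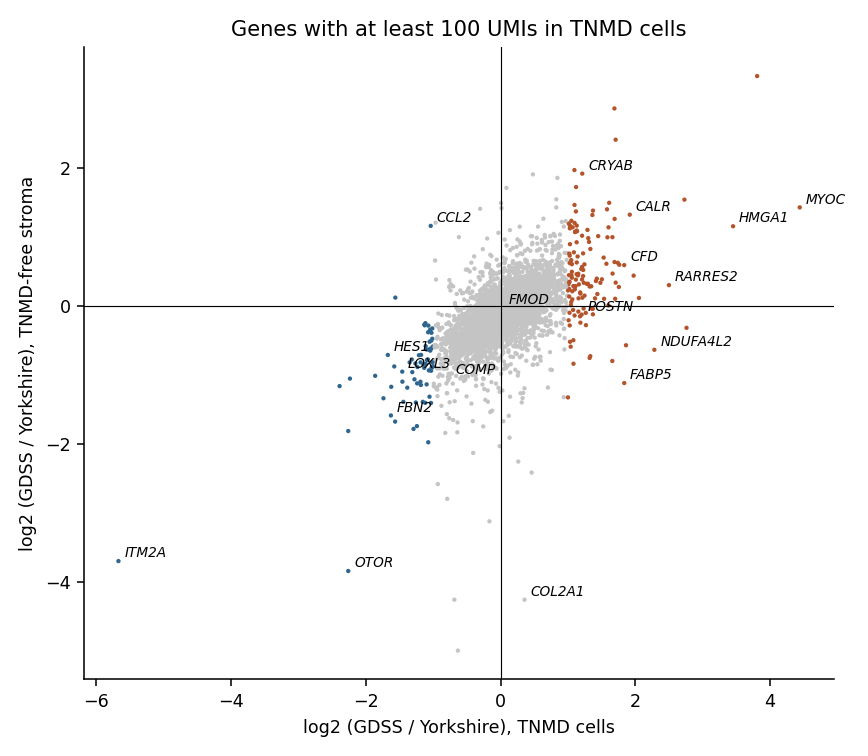
Log2 ratio of GDSS over Yorkshire in TNMD cells (x axis) and in TNMD-free stroma (y axis), 1 point per gene with at least 100 UMIs over the TNMD cells of both libraries. Genes at least 2-fold higher in GDSS TNMD cells are brown and those at least 2-fold higher in Yorkshire blue; FABP5 lies at the lower right and CCL2 at the upper left, OTOR at the lower left, and FMOD near the centre, while a gene without UMIs in 1 group is drawn at its floor of 3 UMIs.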

How the data were processed

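Single-cell libraries of longissimus dorsi cells from 1 GDSS and 1 Yorkshire preparation were analysed. The deposited matrices hold raw UMI counts per gene and barcode. Per the file headers they were written by software of version 3.1.0, and per the submitters' processing notes the authors used Cell Ranger and R 3.5.2. The genome build is not given in the sources used here. No coordinates or sequences are printed. Of 21301 features 14846 carry a symbol, and 687 more were named from a reference table of pig gene identifiers.

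Counts were summed over TNMD cells, TNMD-free stroma and all other barcodes of each library and scaled to CPM. Intervals are exact Poisson for levels, exact conditional binomial for ratios and Clopper-Pearson for shares, all at 95%, and cover counting error only. A count of 0 was set to a floor of 3. With 1 library per breed no test was made. The genes named are the tenocyte markers, up to 4 genes of each list with the largest ratio past 2-fold, the 12 highest and 12 lowest genes of each comparison, PDGFRA and CD9. The ranking asked for at least 30 UMIs in TNMD cells of each library or 20 CPM in stroma, and for the breeds 100 UMIs and 20 CPM, and left out sex-linked, ribosomal, SLA, haemoglobin and mitochondrial genes. Other genes named were chosen after their values were seen, as members of the lists or of the levels shown. The cells, the gene lists and the comparisons were chosen with earlier results of these data known. Barcodes with a scrublet score of at least 0.3 or over 10% mitochondrial UMIs stayed in and were taken out as alternatives, as were cells thinned to 1500 UMIs, TMM factors and other minimums. The stroma with KERA or THBS4 and the minimum of 10 TNMD UMIs were added after the data were seen. The arithmetic of the ratios to stroma was run on simulated Poisson counts. These held known differences, the same in both libraries, in genes with many stromal UMIs. The simulation had no variation between cells or libraries, so it cannot speak for the breed values or for genes with few UMIs. The tools were Python 3.11.15, numpy 2.4.6, scipy 1.17.1, pandas 2.3.3, scanpy 1.11.5, matplotlib 3.10.9 and R 4.3.3 with edgeR 4.0.16, which gave the TMM factors only.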

Additional observations from a re-analysis of the deposited data

Results flagged for a closer look

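Of the genes past 2-fold in both libraries, 2 differed in direction between them. SFRP1, a Wnt-binding protein, had 31.9 CPM in GDSS TNMD cells against 11.8 CPM in stroma (log2 1.44), and 35.8 CPM in Yorkshire TNMD cells against 102 CPM in stroma (log2 -1.52). SMOC1, a calcium-binding matrix protein, had 21.7 CPM against 3.66 CPM in GDSS (log2 2.57) and 9.53 CPM against 20.6 CPM in Yorkshire (log2 -1.11), with 55 and 16 UMIs in TNMD cells. For both genes the stroma of Yorkshire was far above that of GDSS. The difference between libraries was not tested.

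The breed difference ran in opposite directions in TNMD cells and in TNMD-free stroma for 3 genes. FABP5 had a log2 ratio of GDSS over Yorkshire of 1.84 in TNMD cells and -1.12 in stroma. FBLN7, a fibulin of the matrix, had 42.9 CPM in GDSS and 21.5 CPM in Yorkshire TNMD cells, a log2 ratio of 1.00, and -1.33 in stroma. CCL2, a chemokine, had 107 CPM in GDSS and 220.5 CPM in Yorkshire TNMD cells, a log2 ratio of -1.04, and 1.16 in stroma, but 10 cells held 75.1% of its UMIs in GDSS and 87.3% in Yorkshire TNMD cells. These differences were not tested.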

How the results depend on the processing

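No paired analysis was possible because each breed has 1 library, so the groups share fewer than 2 replicate numbers. Of 2290 recomputed values under 11 planned and 2 added alternatives, 1944 stayed within their limit, 346 moved beyond it and 0 values that were past 2-fold changed sign. The limit was the counting interval for shares and breed ratios, the spread between the libraries for ratios to stroma, and 1.5 times for counts of genes. With at least 5 TNMD UMIs the share of TNMD cells was 2.70% in GDSS and 1.44% in Yorkshire, with at least 10 it was 2.11% and 0.823%, and among barcodes deep enough for thinning it was 3.74% in GDSS. Genes higher and lower than in stroma numbered 333 and 466 with TMM factors, 367 and 1589 with a minimum of 20 UMIs and none on CPM, 68 and 428 with 500 UMIs, and 104 and 502 against stroma with KERA or THBS4. Thinning to 1500 UMIs left 94 higher. For GDSS over Yorkshire, 36 and 15 genes were higher in each after thinning, 513 and 358 with 20 UMIs and 25 and 10 with 500 UMIs. These minimums and thinning change how many genes can enter. Depth limits the lowest genes, such as SCX and SOX9, for which no ratio is given, and 1 library per breed limits every breed value.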

Other observations

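These 4 genes lie outside the lists and the ranking and were chosen after their values were seen, so they say nothing of their gene families. KCNMA1, the pore of the large-conductance calcium-activated channel, had 44.5 CPM in GDSS TNMD cells against 2.63 CPM in stroma, and 48.9 CPM in Yorkshire TNMD cells against 5.65 CPM in stroma. KCNMB4, an accessory subunit of the same channel, had 57.9 CPM against 1.85 CPM in GDSS and 69.7 CPM against 4.07 CPM in Yorkshire. KCNT2, a sodium-activated potassium channel, had 46.1 CPM against 1.24 CPM in GDSS and 48.3 CPM against 2.71 CPM in Yorkshire. CPZ, a carboxypeptidase of the matrix, had 1713 CPM against 32.8 CPM in GDSS and 1298 CPM against 51.2 CPM in Yorkshire.

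ITM2A, a membrane protein of the family that also holds chondrocyte genes, had no UMI in 390 GDSS TNMD cells, while Yorkshire TNMD cells had 60.2 CPM. That is at least 51.0-fold higher in Yorkshire, against a floor of 3 UMIs in the GDSS sum. The gene was not absent from the GDSS library as a whole, with 325 CPM in PECAM1 barcodes of GDSS and 879 CPM in those of Yorkshire. Stroma of GDSS had 6.35 CPM and stroma of Yorkshire 82.3 CPM. C1QB barcodes had 6.36 CPM in GDSS and 51.0 CPM in Yorkshire, so the level of Yorkshire TNMD cells (49.0 to 73.1) was not above that of its macrophage barcodes (38.3 to 66.5), and stray RNA was not tested. The gene is X-linked and was left out of the ranking for that reason.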
